A study of Mus musculus with 14 samples.

Results

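The comparison was between the 2 control lines of a study of the mRNA deadenylase Cnot7, and all 6 control samples were used of 14 in all. The 3 vector control samples were 4T1 cells transduced with an empty lentiviral vector and selected with blasticidin, and the 3 shScramble samples were 4T1 cells transduced with a scrambled hairpin and selected with puromycin. 4T1 is a transplantable mammary carcinoma line of BALB/c mice. Of 35556 probe sets in the deposited table of log2 signals, 21789 carried exactly 1 gene symbol and were tested. The other 8 samples were 3 of cells over-expressing human FLAG-tagged CNOT7 from a lentiviral vector under blasticidin, and 2 and 3 of cells with the Cnot7 hairpins sh74 and sh75 under puromycin. The CNOT7 insert is driven by the murine Pol2 promoter, whereas the control vector carries a non-coding stuffer and is described in the methods as built in another destination vector, so the backbones of the blasticidin-selected lines may differ. Vector and drug changed together between the controls, so that the effects of backbone, hairpin expression and drug cannot be told apart, and no untransduced or unselected cells were analysed here. The submitters call the samples biological replicates without saying that they came from separate transductions, so the p-values reflect no more than how far these arrays differ.

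Blasticidin and puromycin both stop protein synthesis at the ribosome. Blasticidin blocks peptide bond formation and is inactivated by a deaminase, whereas puromycin mimics the end of a charged tRNA, enters the growing chain and ends it, and is inactivated by an acetyltransferase. Hairpins are cut by Dicer and loaded into Argonaute, the machinery that also carries microRNAs, and lentiviral vectors integrate at different sites in different cells, so a selected population is a mixture or, if few cells survive, a small number of clones.

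Cnot7 itself did not differ beyond the spread of the samples. Its log2 signal was 10.07, 10.52 and 10.15 in the vector control samples and 10.44, 10.33 and 10.20 in the shScramble samples. The change was -0.08 (SE 0.26, 95% interval -0.64 to 0.49; limma adjusted p = 1.0, two-sided exact permutation p = 0.70, where 3 against 3 samples cannot go below 0.10). The groups overlapped. In the Cnot7 hairpin lines the same probe set read 8.71 and 9.33 with sh74 and 7.52, 8.51 and 8.07 with sh75, all below the 6 control samples.

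The 6 samples carried the markers of a mammary carcinoma line. Krt7, Krt8, Krt18 and Cdh1, structural genes of simple epithelium, were at 10.68 or above in all 6 samples. Epcam ranged from 8.41 to 9.65. The tight-junction genes Cldn7 and Cldn3 and the epithelial splicing regulator Esrp1 varied between samples of the same group, with Cldn7 from 5.83 to 10.52, Cldn3 from 6.48 to 10.28 and Esrp1 from 5.21 to 10.76. Of markers of other cell types, Ptprc, which defines leukocytes, lay between 4.49 and 4.73, below the 90th percentile of olfactory receptor probe sets (4.89), used here as the level of unexpressed genes. Over whole lists, the mean level of 11 immune markers was 5.17 to 5.43 in vector control and 5.23 to 5.38 in shScramble samples, of 8 endothelial markers 5.07 to 5.105 and 5.04 to 5.12, of 9 fibroblast markers 5.48 to 5.64 and 5.52 to 5.59, of 6 adipocyte markers 5.07 to 5.195 and 5.11 to 5.16, and of 8 myoepithelial markers 5.61 to 5.94 and 5.59 to 6.12. Only Csf1r, Cd14, Pdgfra and Krt14 of these exceeded 7 in any control sample. At or below 4.89 in all 6 samples were 5 of 11 immune, 2 of 8 endothelial and 2 of 9 fibroblast markers. So were 1 of 6 adipocyte and 0 of 8 myoepithelial markers. In bulk RNA a change in the share of one kind of cell and a change in RNA per cell cannot be told apart.

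Across all genes the control lines were close. No probe set passed an adjusted p of 0.05 (0% of those tested, limma; smallest adjusted p = 0.163), and 807 passed an unadjusted p of 0.05 (3.7%), 385 higher and 422 lower in vector control. With no difference at any probe set, 1089 would be expected to pass the unadjusted p. The methods' t-test on the 6 samples called 0 after Benjamini-Hochberg adjustment and 983 before it. The samples of the 2 controls did not overlap at 2123 probe sets (9.74%), 1018 higher and 1105 lower in vector control. Where group labels are arbitrary, 3 against 3 samples do not overlap with a probability of 0.1. The absolute change was under 1.5-fold at 99.1% of probe sets, and its 95% interval left out a 2-fold change at 20844 of them (95.7%). These shares include dim probe sets, since 16225 had a mean above the background level in at least 1 control. Correlation between pairs of samples across probe sets was 0.986 to 0.995 within a control and 0.989 to 0.995 between the controls. The first and second principal components of the 6 samples, with 37.1% and 29.2% of the variance, mixed the controls. The third, with 14.9%, held the vector control samples at 13.6, 15.3 and 3.45 and the shScramble samples at -9.37, -11.7 and -11.3. The genes with the largest weights on the first component were Tc2n, Cldn7, Il1a, Arhgap29 and Lcn2, which ranged over 4.37 to 5.91 log2 units among the 6 samples.

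Most of the large differences lay in genes that also varied widely within a control. Of 38 probe sets that differed by 2-fold or more (0.174%), 13 higher and 25 lower in vector control, 34 had a within-group SD above 0.5 in at least 1 control, and 10 had samples that did not overlap. The largest difference was in Lcn2, the iron-siderophore carrier lipocalin 2, which read 6.196, 11.17 and 7.83 in vector control and 10.04, 11.55 and 10.28 in shScramble samples. Its change of -2.22 (SE 1.197, adjusted p = 1.0) was smaller than its SD of 2.54 in vector control cells, and vector control replicate 2 lay among the shScramble samples. Mmp3, the matrix protease stromelysin 1, read 6.84, 8.75 and 8.64 against 9.64, 9.69 and 10.88, a change of -1.99 (SE 0.90, adjusted p = 1.0). The Mmp3 groups did not overlap, but the over-expression samples, from 8.15 to 10.24, overlapped the samples of both Cnot7 hairpins, from 8.34 to 11.98.

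Other genes with wide spread were well above background in some samples of a group and near it in others. Dapk1, a calcium-calmodulin regulated death kinase, was between 4.90 and 5.12 in vector control and between 5.04 and 5.21 in over-expressing cells, and read 6.93, 5.11 and 7.68 in shScramble, 8.47 and 5.197 in sh74, and 5.27, 8.38 and 7.995 in sh75 samples. All 6 blasticidin-selected samples were therefore at or near background, and 5 of 8 puromycin-selected samples read 6.93 or above. The control change of -1.59 (SE 0.94) did not pass the test (adjusted p = 1.0), nor did the difference between the arms (adjusted p = 0.287). Sparc, a secreted matrix glycoprotein, read 10.78, 9.87 and 11.20 in vector control but 9.82, 5.81 and 11.12 in shScramble samples, so its change of 1.70 (SE 1.13) rested on shScramble replicate 2. Esrp1 read 10.08, 10.58 and 10.01 against 10.76, 10.56 and 5.21, and its change of 1.38 (SE 1.93) became -0.44 without shScramble replicate 3. Cldn7 was near 6 in vector control replicates 1 and 3 and shScramble replicate 3 and above 10 in the other 3 samples. Arhgap29 was at 4.60 in vector control replicate 2 and 4.47 in shScramble replicate 2. Fam169a (change 1.44), Lgals3bp (1.16), Lilr4b (-1.59) and Adgrg3 (-1.42) also had adjusted p = 1.0.

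**Figure D1:**
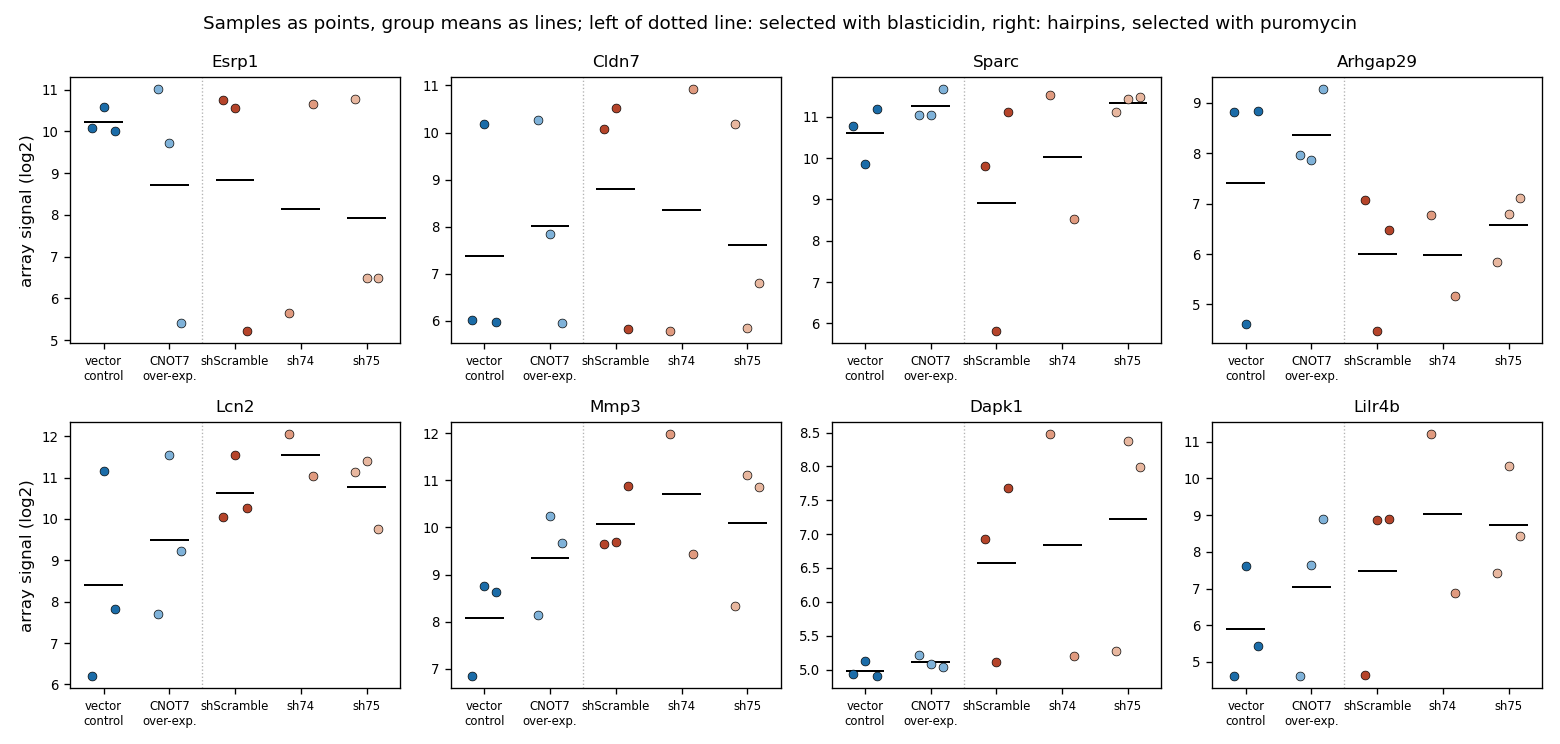
Array signal (log2) of 8 of the genes with the largest differences between the controls, 1 point a sample in the 5 groups, lines at group means. Esrp1 ranges from 5.21 to 10.76 within shScramble (SD 3.15), whereas Dapk1 is between 4.90 and 5.21 in all 6 blasticidin-selected samples.

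**Figure D2:**
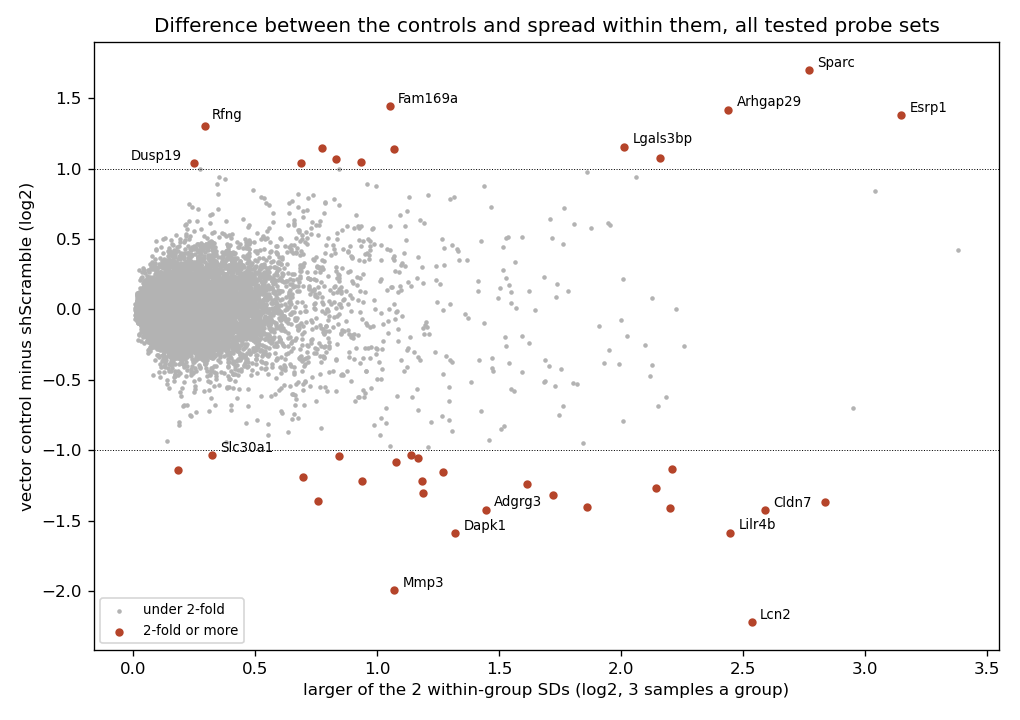
Vector control minus shScramble (log2, vertical) against the larger of the within-group SDs (log2, horizontal) for 21789 probe sets. Of the 38 probe sets at 2-fold or more, 34 have an SD above 0.5, and the 4 exceptions are Rfng, Dusp19, Slc30a1 and Mt2.

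Among genes that did separate the controls with little spread, Banp, Rfng and Pfkl were higher in vector control and had the smallest p-values. Banp encodes a nuclear matrix protein that binds DNA at unmethylated CpG-containing motifs. Its signal was 9.36, 9.46 and 9.54 in vector control and 8.60, 8.63 and 8.14 in shScramble samples. The change was 0.997 (SE 0.14, 95% interval 0.70 to 1.29), with adjusted p = 0.163. Rfng, the radical fringe glycosyltransferase that modifies Notch receptors, read 8.97, 8.44 and 8.77 against 7.26, 7.25 and 7.76. The change was 1.30 (SE 0.18, adjusted p = 0.163). Pfkl, the liver-type phosphofructokinase of glycolysis, read 10.69, 10.85 and 10.87 against 10.27, 10.37 and 10.31, a change of 0.48 (SE 0.07, adjusted p = 0.164). The samples of these 3 genes did not overlap between the controls, which the rule for naming them required, and none passed the test. With array quality weights, Rfng was the 1 probe set called (change 1.40, adjusted p = 0.0261).

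The next genes higher in vector control were of mixed function. Dusp19, a dual-specificity phosphatase, read 7.49, 7.95 and 7.83 against 6.48, 6.70 and 6.98 (change 1.04, SE 0.20, adjusted p = 0.743). Irgm1, an interferon-inducible GTPase, read 7.97, 8.31 and 7.94 against 6.82, 7.23 and 7.51 (change 0.89, SE 0.21, adjusted p = 1.0). Rfx5 (0.61), which drives MHC class II genes, Eid3 (0.60), Piga (0.51) of glycosylphosphatidylinositol anchor synthesis, Hps4 (0.49) of lysosome-related organelles, Irak1bp1 (0.49), the phosphatase 2A methylesterase Ppme1 (0.33) and the sorting nexin Snx3 (0.32) had adjusted p = 1.0.

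Of the 12 genes lower in vector control with the smallest p-values, 3 are solute carriers, whose share among all tested probe sets was not counted. Slc30a1, which exports zinc across the plasma membrane, read 7.10, 6.49 and 6.98 in vector control and 7.94, 7.96 and 7.75 in shScramble samples, a change of -1.03 (SE 0.20, adjusted p = 0.743). Slc20a1, a sodium-phosphate importer, read 9.95, 10.13 and 9.75 against 10.85, 10.82 and 10.64, a change of -0.82 (SE 0.18, adjusted p = 1.0). Slc38a2, the sodium-coupled neutral amino acid transporter SNAT2, read 11.49, 11.45 and 11.60 against 12.18, 11.85 and 11.92, a change of -0.47 (SE 0.10, adjusted p = 1.0). None of these groups overlapped, which the rule for naming these 3 genes required. The metallothioneins Mt1 and Mt2, which bind zinc and are induced by it as Slc30a1 is, were looked up after the value of Slc30a1 had been seen. Mt2 read 11.30, 11.29 and 11.25 against 12.56, 12.21 and 12.50, a change of -1.14 (SE 0.45). Mt1 read 11.43, 11.95 and 11.75 against 12.45, 12.36 and 12.51, a change of -0.73 (SE 0.20). Neither group overlapped, and both adjusted p-values were 1.0.

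Phf13, which reads methylated histone H3, differed by -0.35 (SE 0.07, adjusted p = 0.743) and had SDs of 0.13 and 0.04. Prdm10, a zinc finger factor, read 7.61, 7.60 and 7.86 against 8.16, 8.40 and 8.19 (change -0.56, SE 0.11), and Epc2, a subunit of the NuA4 acetyltransferase, differed by -0.40 (SE 0.09). The repressor Bcl6 read 7.80, 8.22 and 7.82 against 8.67, 8.76 and 8.69 (change -0.76, SE 0.19). Agfg2 (-0.68), the cation channel Trpv3 (-0.69), Gpr137b (-0.46), Ier5l (-0.45) and Wsb1 (-0.37) completed the 12 with the smallest p-values, and all but Phf13 and Slc30a1 had adjusted p = 1.0. Gpr137b has a pseudogene, Gpr137b-ps, and cross-hybridisation was not tested.

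**Figure D3:**
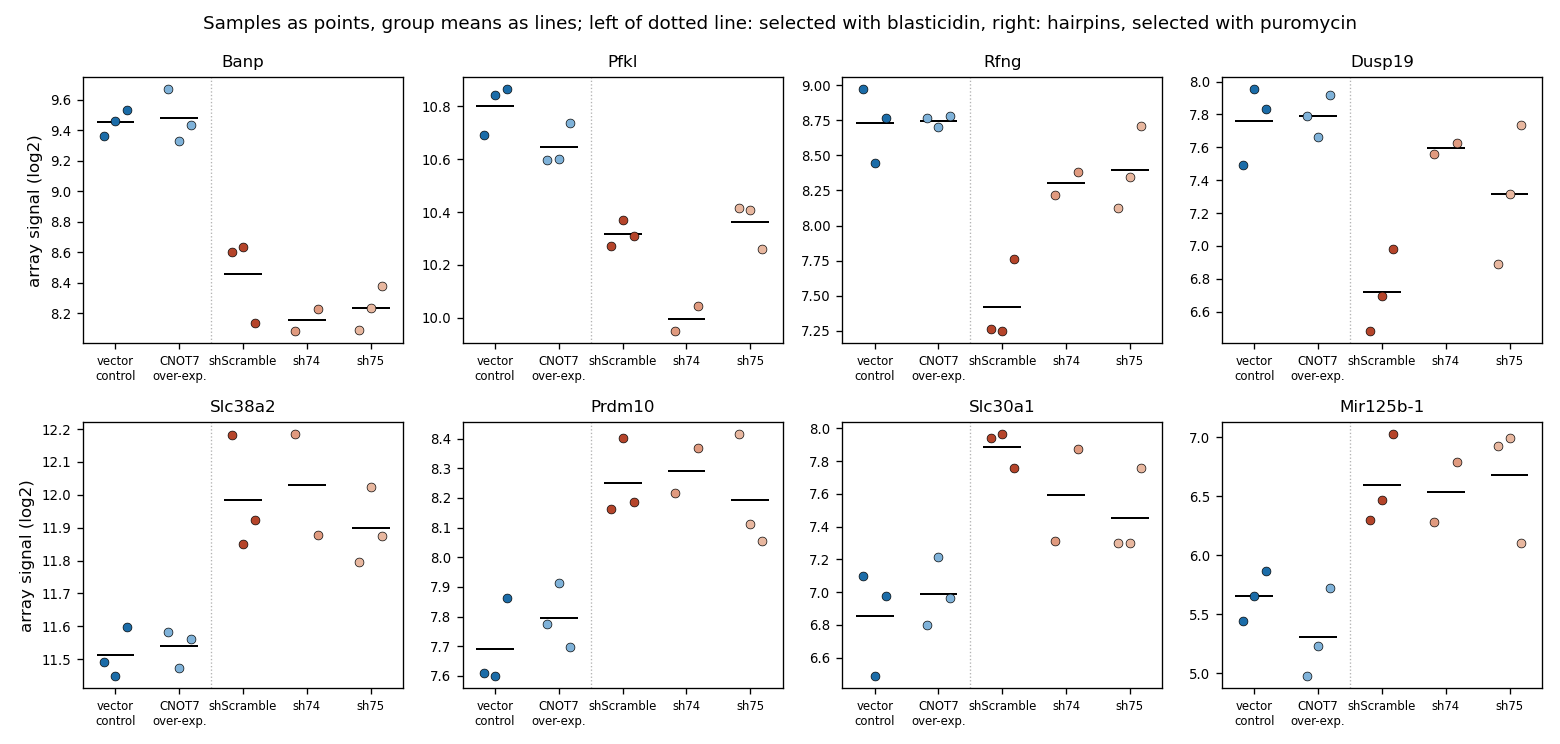
Array signal (log2) of 8 genes, 1 point a sample in the 5 groups, lines at group means. Banp lies between 9.33 and 9.67 in the 6 blasticidin-selected samples and between 8.08 and 8.63 in the 8 hairpin samples. The group means of Rfng and Dusp19 are lowest in shScramble, though 1 sh75 sample of Dusp19 (6.89) lies below the highest shScramble sample (6.98).

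The Cnot7-manipulated samples carry the same difference of drug and of hairpin against no hairpin, though not necessarily of backbone, and share no sample with the controls. Over-expression minus the mean of both hairpins, fitted on those 8 samples alone, called 0 probe sets (0%; limma, smallest adjusted p = 0.0531), with 1864 at an unadjusted p under 0.05 (8.55%). In that contrast Cnot7 differed too (change 1.72, SE 0.27). On its probe set over-expression (mean 10.25) was at the level of vector control (10.25), whereas the means were 9.02 in sh74 and 8.03 in sh75. Cnot7 dose cannot be told apart from vector and drug in that contrast. The change had the same sign as between the controls at 56.9% of all probe sets and at 590 of the 807 with an unadjusted p under 0.05 between the controls (73.1%). Both p-values were under 0.05 with the same sign at 210 of the 807 and with opposite signs at 22. The p-values between the controls came from the fit of all 14 samples, whose estimate of the spread includes these 8. Probe sets picked by them therefore tend to vary little in the 8 samples too, which raises the share with a small p there. Across all probe sets, which are not independent replicates, the changes had a Pearson correlation of 0.34 and a Spearman correlation of 0.24.

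Of the 12 named genes higher in vector control, 9 were also higher in over-expressing cells than in the mean of the hairpin lines, 7 of them with an unadjusted p under 0.05, and of the 12 named as lower, all 12 were lower than that mean, 8 of them with such a p. These genes were picked by p-values from the same fit, so the limit on counts of small p-values holds for them as well. Gpr137b and Slc20a1 were not lower than both lines, since Gpr137b had a mean of 8.14 with over-expression, 9.59 in sh74 and 7.74 in sh75, and Slc20a1 of 9.91, 9.86 and 10.51. In that contrast Banp differed by 1.28 (SE 0.10, adjusted p = 0.0531), Pfkl by 0.47 (SE 0.07, adjusted p = 0.306) and Slc38a2 by -0.42 (SE 0.09). Slc30a1 differed by -0.53 (SE 0.18), Mt1 by -0.85 (SE 0.20) and Mt2 by -1.19 (SE 0.51). Rfng differed by 0.40 (SE 0.13) and Dusp19 by 0.34 (SE 0.18). Irgm1 (-0.12, SE 0.17), Snx3 (-0.03, SE 0.07) and Eid3 (-0.28, SE 0.10) had the opposite sign.

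The difference between the contrasts was tested directly. No probe set passed (limma, smallest adjusted p = 0.138), with 761 at an unadjusted p under 0.05. For Rfng the difference was 0.90, for Irgm1 1.01 and for Eid3 0.87, each with adjusted p = 1.0 by limma. Rfng read 7.26, 7.25 and 7.76 in shScramble samples and 8.12 to 8.71 in the 5 samples with Cnot7 hairpins, so that its lowest values were those of the scrambled hairpin.

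**Figure D4:**
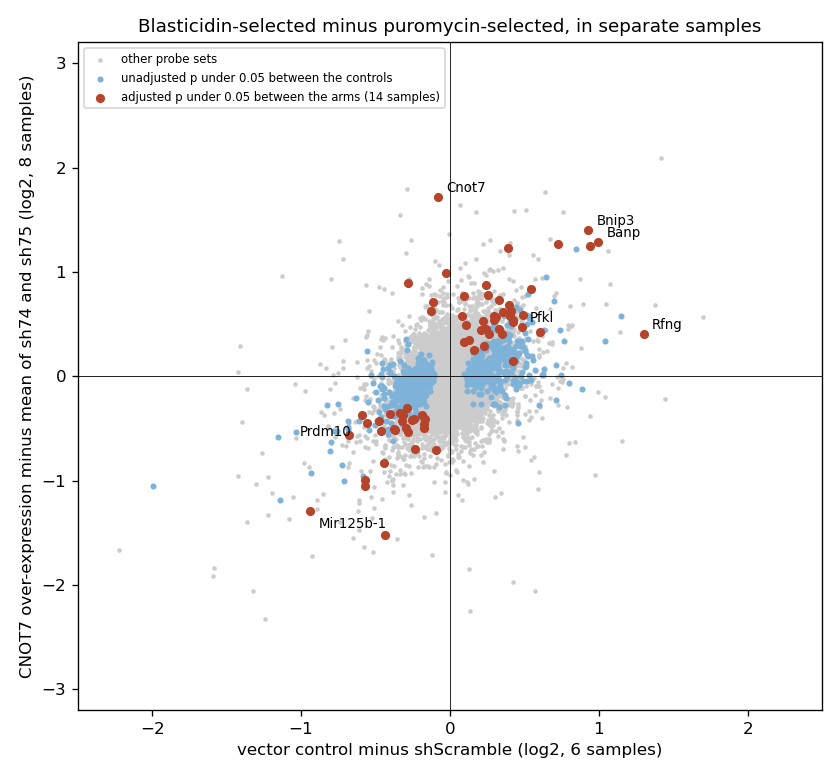
Change between the controls (horizontal, log2) against the change between over-expression and the mean of the Cnot7 hairpins (vertical, log2) for 21789 probe sets, with the 68 called between the arms in red. Banp and Bnip3 are displaced along both axes, whereas Cnot7 is displaced along the vertical axis alone (-0.08 and 1.72).

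With all 14 samples, the mean of the blasticidin-selected groups (the blasticidin arm, 6 samples) was compared with the mean of the puromycin-selected hairpin groups (the hairpin arm, 8 samples). This contrast uses the control samples and the Cnot7-manipulated samples again and is no separate evidence. It called 68 probe sets (0.312%), 41 higher and 27 lower in the blasticidin-selected samples, and all 14 samples were separated by arm at 28 of the 68 and at 80 of all probe sets (0.367%). Of the 68, 50 had an unadjusted p under 0.05 between the controls, and 68 between over-expression and the mean of the hairpins. Since the contrast combines these differences in the same samples, such counts follow largely from how the 68 were picked. Cnot7 was itself among the 68 (1.12, adjusted p = 0.0378, limma). The hairpin arm includes the sh74 and sh75 samples, so Cnot7 dose cannot be told apart from vector and drug in this contrast. Banp was first (1.18, SE 0.09, adjusted p = 0.000925). Its signal was 9.33 to 9.67 in the blasticidin-arm samples and 8.08 to 8.63 in the hairpin-arm samples. Pfkl (0.50, adjusted p = 0.00353) was likewise separated by arm, with 10.60 as the lowest value of the blasticidin arm and 10.41 as the highest of the hairpin arm. The count depended on single samples, from 4 without sh75 replicate 1 to 272 without sh74 replicate 2. Banp, Pfkl and Chordc1 were called in every one of the 14 fits with a sample left out.

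Of the 29 hypoxia and glycolysis genes, 2 were called between the arms, Pfkl and Bnip3, where 0.312% of all probe sets were called. Bnip3, a mitophagy receptor, read 9.92, 10.41 and 10.23 in vector control and 9.13, 8.96 and 9.68 in shScramble samples, and the arms differed by 1.31 (adjusted p = 0.0212). Its other probe set gave 1.21 (adjusted p = 0.0185). Ak4, a mitochondrial adenylate kinase, read 9.05, 8.57 and 8.80 against 8.21, 8.15 and 7.87, and the arms differed by 1.14 (adjusted p = 0.0212). Bnip3 was called in 11 and Ak4 in 9 of the 14 fits with a sample left out. Plod2, a collagen lysyl hydroxylase (0.79), Higd1a (0.58) and Fam162a (0.54) were higher in the blasticidin arm with all samples, and were called in 0, 1 and 2 of those 14 fits. Lower in the blasticidin arm were the kinases Clk1 (-0.65) and Clk4 (-0.52), which phosphorylate splicing factors, and the cyclin Ccnl2 (-0.40), the chromatin remodeler Ino80 (-0.48), and Prdm10, Epc2, Agfg2 and Slc38a2. Of these, Ino80 was called in 8 of the 14 fits and the others in 2 to 5. The genes of this paragraph were named after their values had been seen. For some of the 68 the contrasts did not run alike. Chordc1, a heat-shock cochaperone, differed by -0.03 (SE 0.09) between the controls and by 0.99 (SE 0.07) between over-expression and the mean of the hairpins, with a mean of 8.71 in sh74 against 10.07 in sh75 and 10.38 with over-expression. Hipk3, a protein kinase, differed by -0.28 (SE 0.12) between the controls, which did not overlap, and by 0.90 (SE 0.12) the other way in the Cnot7-manipulated samples.

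Mir125b-1 and Mirlet7a-2 were among the 68. Mir125b-1 was named after its values had been seen, and is shown because hairpins and microRNAs share their processing enzymes. Mir125b-1 lies at chr9:41581926-41582002 on the plus strand (GRCm38.p6, RefSeq). Its mature products have the following RefSeq sequences, with the seed (bases 2 to 8) in capitals.
mmu-miR-125b-5p: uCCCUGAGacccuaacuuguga
mmu-miR-125b-1-3p: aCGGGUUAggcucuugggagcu
The Mir125b-1 probe set read 5.44, 5.65 and 5.86 in vector control and 6.29, 6.46 and 7.02 in shScramble samples. In the other samples it read 4.97, 5.23 and 5.72 with over-expression, 6.28 and 6.79 with sh74, and 6.93, 6.99 and 6.10 with sh75. All blasticidin-arm samples thus lay below all hairpin-arm samples. The control change was -0.94 (SE 0.28, limma adjusted p = 1.0), and the arms differed by -1.12 (SE 0.19, adjusted p = 0.0454). The probe set covers the precursor locus, and the mature miR-125b was not measured. Mir125b-2, whose 5p product is identical, was at background, with a mean of 3.62 in vector control and 3.67 in shScramble cells. Mirlet7a-2, 45.2 kb away on the same strand, differed the other way (0.43, SE 0.07, adjusted p = 0.23) at 4.69 and 4.26, under the background level of 4.89, and its difference between the arms was 0.25 (adjusted p = 0.0478). Of 305 microRNA probe sets, 0 were called between the controls (7, or 2.3%, at an unadjusted p under 0.05 against 3.7% of all probe sets), 35 did not overlap (11.5% against 9.74%), and 2 were called between the arms (0.656% against 0.312%).

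Genes of the processes that the vectors and drugs act on differed little between the controls. In all 41 gene lists 0 members were called (limma), and the median change over all probe sets was -0.0049, with 47.7% higher in vector control. Of 31 translation factors, 12 were higher and 19 lower in vector control (median -0.04, 0 at an unadjusted p under 0.05). Of 53 cytosolic ribosomal proteins, 29 were higher and 24 lower (median 0.02, 0 at such a p). Of 21 genes of ribosome collision and ribotoxic stress, 8 were higher and 13 lower (median -0.03, 0 at such a p). Of 29 genes of the ATF4 and amino acid response, 16 were higher and 13 lower (median 0.02, 0 at such a p), although Slc38a2, an amino acid transporter that responds to amino acid supply, differed as above. Of 22 genes of the small RNA silencing machinery, 7 were higher and 15 lower (median -0.06, 3 at such a p). Drug transporters (9 higher and 7 lower of 16, median 0.02), nucleic acid sensors (14 and 7 of 21, median 0.06), retrovirus restriction factors (10 and 8 of 18, median 0.04), p53 targets (11 and 12 of 23) and proteasome subunits (18 and 13 of 31) also had medians within 0.07 of 0. The direction of most of these lists turned when 1 sample was left out. Without vector control replicate 2 the median was -0.12 for nucleic acid sensors (8 higher and 13 lower), -0.12 for restriction factors (7 and 11) and -0.09 for the ATF4 list (8 and 21). Medians with a sample left out ran from -0.08 to 0.01 for translation factors, from -0.05 to 0.00 for ribotoxic stress, from -0.09 to 0.00 for the small RNA machinery, from -0.02 to 0.03 for drug transporters, from -0.06 to 0.02 for p53 targets and from -0.02 to 0.05 for the proteasome. For ribosomal proteins they stayed between 0.01 and 0.03.

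Cholesterol synthesis was the list with the lowest median. Of its 17 members, 16 were lower in vector control, the median change was -0.33, and 8 (47.1%) did not overlap against 9.74% of all probe sets, but 0 were called and 0 had an unadjusted p under 0.05. Hmgcs1, which makes HMG-CoA, read 10.58, 9.97 and 10.73 in vector control and 11.25, 10.92 and 11.15 in shScramble samples (change -0.68, SE 0.41). Hsd17b7, which acts late in the pathway, read 9.43, 8.38 and 9.22 against 9.89, 9.78 and 9.82 (change -0.82, SE 0.38), and Sc5d, a sterol desaturase, 10.70, 10.40 and 10.64 against 11.06, 10.94 and 10.88 (change -0.38, SE 0.17). The mean over members, relative to all 14 samples, was 0.13, -0.28 and 0.19 in vector control and 0.41, 0.30 and 0.36 in shScramble samples, which did not overlap. In the Cnot7-manipulated samples it was -0.06, -0.13 and -0.71 with over-expression, -0.45 and 0.36 with sh74, and 0.41, -0.07 and -0.46 with sh75, which did. Without vector control replicate 2 the median was -0.15, with 15 of 17 lower. The median between over-expression and the mean of the hairpins was -0.26, with 3 of 17 higher.

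Hypoxia and glycolysis genes were higher in vector control in 24 of 29 cases, with a median of 0.18, 7 not overlapping (24.1% against 9.74% of all probe sets) and 4 at an unadjusted p under 0.05 (3.7% of all probe sets). These 4 were Pfkl, Bnip3, P4ha1 (change 0.52, SE 0.17), a collagen prolyl hydroxylase, and Slc2a1 (0.33, SE 0.13), the glucose transporter GLUT1. Vector control replicate 2 was highest, with a mean over members of 0.61 against -0.07 and 0.15 in the other vector control samples and -0.07, -0.02 and 0.08 in shScramble samples. Without it the median was 0.09, with 20 of 29 higher, and without shScramble replicate 3 it was 0.29. Between over-expression and the hairpins the median was 0.14, with 20 of 29 higher.

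Interferon response genes were higher in 33 of 39 cases (median 0.21), but this rested on vector control replicate 2, whose mean over members was 1.03 against -0.36 and -0.42 in the other vector control samples. The shScramble samples were at -0.32, -0.05 and -0.17. Without that sample 28 of 39 were lower and the median was -0.14, and without vector control replicate 1 or 3 it was 0.49 or 0.54. The sign turned between over-expression and the mean of the hairpins, with a median of -0.17 and 10 of 39 higher. Rsad2, the antiviral enzyme viperin, read 5.77, 7.34 and 5.82 in vector control and 5.75, 6.06 and 5.99 in shScramble samples, and Oas1a, an RNA-sensing synthetase, 5.52, 7.31 and 5.76 against 5.87, 5.89 and 5.56. Antigen presentation genes were higher in 12 of 13 cases (median 0.20), with 0 at an unadjusted p under 0.05 and the highest mean in the same sample (0.35 against -0.18 and -0.11). Without that sample 7 of 13 were higher and the median was 0.04, and without shScramble replicate 1 it was 0.05. Here too the sign turned between over-expression and the mean of the hairpins (median -0.15, 5 of 13 higher).

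DNA replication genes were lower in 28 of 36 cases (median -0.08), and 5 did not overlap (13.9% against 9.74% of all probe sets). Their mean over members was -0.07, 0.04 and 0.01 in vector control and 0.08, 0.06 and 0.10 in shScramble samples, which did not overlap. Of the 41 lists, cholesterol synthesis was the only other whose means did not overlap. Where group labels are arbitrary, a list has a probability of 0.1 of not overlapping. Separation in so few of the 41 lists therefore does not set these lists apart. Over all 14 samples the arms overlapped for DNA replication, at -0.13 to 0.08 in the blasticidin arm and -0.23 to 0.20 in the hairpin arm. With a sample left out the median lay between -0.10 and -0.07. NRF2 and glutathione genes were lower in 18 of 24 cases (median -0.12, and -0.14 to -0.09 with a sample left out). Mitosis genes were lower in 21 of 28 cases (median -0.07, and -0.02 without vector control replicate 1). Genes of Ras and MAPK feedback were lower in 14 of 19 cases (median -0.15), but the median ran from -0.03 without vector control replicate 1, with 10 of 19 lower, to -0.32 without shScramble replicate 1. Mitochondrial ribosomal proteins were higher in 27 of 34 cases (median 0.06, and 0.04 to 0.16 with a sample left out) and oxidative phosphorylation genes in 22 of 29 (median 0.04, and 0.02 to 0.08). In the epithelial list 13 were higher and 20 lower (median -0.07, and -0.16 to 0.04 with a sample left out) and in the mesenchymal list 10 and 19 (median -0.04, and -0.08 to -0.01). Between over-expression and the mean of the hairpins the median turned for mitosis (0.10, 22 of 28 higher) and the epithelial list (0.04). It kept its sign for DNA replication (-0.04), NRF2 and glutathione (-0.18), Ras and MAPK feedback (-0.11) and the mesenchymal list (-0.04). The same held for mitochondrial ribosomal proteins (0.20) and oxidative phosphorylation (0.09). The mesenchymal minus epithelial score was -0.07, -0.71 and 0.21 in vector control and -0.58, -0.93 and 0.63 in shScramble samples, with more spread within the controls than between their means of -0.19 and -0.29.

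**Figure D5:**
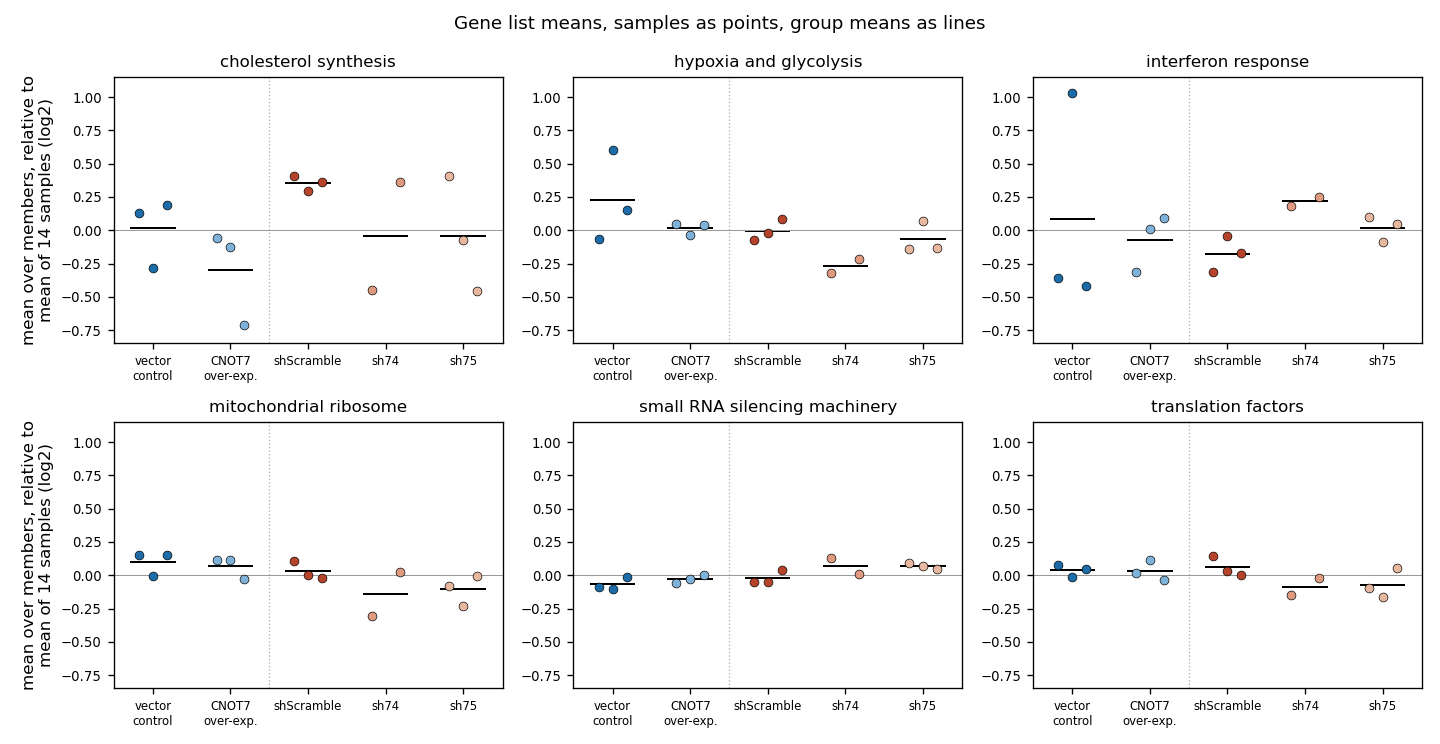
Mean log2 signal over the members of 6 gene lists, relative to the mean of the 14 samples, 1 point a sample, lines at group means. Cholesterol synthesis lies between -0.28 and 0.19 in vector control and between 0.30 and 0.41 in shScramble samples, and vector control replicate 2 stands at 1.03 for interferon response and 0.61 for hypoxia and glycolysis.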

How the data were processed

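RNA of 14 samples of 4T1 cells was hybridised to Affymetrix Mouse Gene 1.0 ST arrays. The authors deposited 1 table of log2 signals, made with RMA in the oligo package per the labels (versions not given in the sources used here). No column lacked a sample. Array medians were 6.31 to 6.38, and the number of arrays limits the precision. Gene symbols came from the platform annotation. Of 35556 probe sets, 21789 had 1 symbol and 13767 had several or none and were tested apart. limma 3.58.1 (R 4.3.3; lmFit, eBayes) was fitted to the 5 groups, with two-sided tests and Benjamini-Hochberg adjustment over the 21789 probe sets, called at an adjusted p under 0.05. The methods' t-test assumed equal variances. The fit was tested on simulated data. Named genes were Cnot7, the 12 smallest p-values a direction among probe sets whose controls did not overlap with a mean of 6 or more in the brighter control (none being called), the 6 largest differences a direction at that level, and members of lists with small p-values. Predicted genes and small RNAs were counted only, except Mir125b-1 and its relatives. A gene was represented by its brightest probe set. The samples, contrasts and gene lists were chosen with earlier results of these data known. Alternatives changed the samples, the filter on dim probe sets (16225 kept), the normalization, the variance model, blocks from the numbers in the sample titles, a covariate, averaging by gene (19938 genes), and left out each sample in turn.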

Additional observations from a re-analysis of the deposited data

How the results depend on the processing

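The count of 0 called between the controls was 1 with array weights, and stayed 0 under each other alternative run and with a control sample left out (0 to 0). The count at 2-fold or more, examined after seeing the data, was 38 without dim probe sets and 40 to 103 with a sample left out (92 without vector control replicate 2, 69 without shScramble replicate 1 and 103 without shScramble replicate 3). The Cnot7 change ranged from -0.21 to 0.011 with a sample left out and reversed to 0.011 without vector control replicate 1. That of Esrp1 ranged from -0.44 to 2.34 and reversed to -0.44 without shScramble replicate 3. Over-expression minus hairpins called 2 without dim probe sets, 1 after quantile normalization, 9 in the fit of all 14 samples (chosen after seeing the data) and 0 to 0 with a sample left out. The 68 calls between the arms became 26 with a trended robust prior, 11 with the title number after the point as a block, 121 with the mesenchymal minus epithelial score as a covariate, and 4 to 272 with a sample left out. The test of the difference between the contrasts called 0 under every alternative run (0 to 0 with a sample left out). Causes were not tested. The title number before the point could not be fitted as a fixed block, since the controls share none, and as a random block it left 0 called. No paired analysis was possible because replicate numbers follow accession order and pair no samples. With 3 arrays a control, the median 95% interval reached 0.22 log2 units to either side.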

Other observations

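The 13767 probe sets with several gene symbols or none were tested apart. Between the controls 0 were called (limma, smallest adjusted p = 0.877), with 608 at an unadjusted p under 0.05 and 8 at 2-fold or more, and 1 was called between the arms. Small nucleolar RNAs were higher in vector control at 33 of 54 probe sets (median 0.02, and -0.04 to 0.08 with a sample left out), and histone genes at 26 of 40 (median 0.03, and 0.01 to 0.07). The subunits and partners of the CCR4-NOT complex, to which Cnot7 belongs, were higher in 9 and lower in 12 of 21 cases (median -0.01, and -0.05 to 0.01).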
